A study of Homo sapiens with 4 samples.

Results

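TXNIP, the arrestin-domain genes ARRDC1, ARRDC2, ARRDC3 and ARRDC4, and the genes MLX and MLXIP were examined in MYC-inducible melanoma cells. These 7 genes were found by their symbols in an RNA-Seq table of 25268 gene symbols, and all 7 were present. MLXIP encodes MondoA. The cells were SK-MEL-28, a human melanoma line kept in culture, which had been transduced with a lentivirus carrying either the empty pTRIPZ vector (vector line) or a MYC gene behind a Tet-inducible promoter (MYC-inducible line, here the MYC line), and both lines were selected with geneticin. Each line was sequenced without doxycycline (Dox) and after 54 h with Dox, which gave 4 libraries from 4 cultures. It is not stated whether either line was a single clone. With 1 library for each condition, the spread between cultures is not known, and no p-value is given.

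TXNIP and the ARRDC proteins belong to the alpha-arrestins, adaptors that bring membrane proteins to ubiquitin ligases for removal from the cell surface. TXNIP restrains glucose uptake by promoting the internalization of the glucose transporter GLUT1, and it binds and inhibits thioredoxin. MondoA pairs with MLX and enters the nucleus when glucose 6-phosphate is abundant, where the dimer binds carbohydrate response elements, and TXNIP and ARRDC4 are its best known targets. MYC pairs with MAX and binds the E-box CACGTG, so the MYC and MondoA dimers recognize related sequences.

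The promoters of TXNIP, ARRDC4 and MLX are shown because only these genes of the 7 held CACGTG or CACGAG, on either strand, in the windows searched. The sequences are those of RefSeq (GRCh38.p14), each matched once and exactly to GRCh37, the build named for the files. All 7 genes had a window, 10 windows in all, each from 250 bases before to 50 bases after a transcript start. The first 2 sequences are the 250 bases before the start of TXNIP (chr1:145438240-145438489, plus strand) and of ARRDC4 (chr15:98503683-98503932, plus strand), and the third is a 30-base stretch before the start of MLX (chr17:40719056-40719085, plus strand). Capitals mark CACGTG, and CACGAG where it occurs.
TXNIP: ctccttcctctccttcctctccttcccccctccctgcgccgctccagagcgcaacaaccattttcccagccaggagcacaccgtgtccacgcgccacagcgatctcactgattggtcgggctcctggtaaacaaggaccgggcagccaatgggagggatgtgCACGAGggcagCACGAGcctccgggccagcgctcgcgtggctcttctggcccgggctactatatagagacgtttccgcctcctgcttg
ARRDC4: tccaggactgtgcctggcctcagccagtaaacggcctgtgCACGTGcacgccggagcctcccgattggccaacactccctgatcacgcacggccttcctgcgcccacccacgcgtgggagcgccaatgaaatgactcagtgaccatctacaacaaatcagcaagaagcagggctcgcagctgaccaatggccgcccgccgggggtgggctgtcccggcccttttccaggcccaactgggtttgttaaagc
MLX: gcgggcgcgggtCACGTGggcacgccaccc

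In TXNIP, CACGAG occurred in the same orientation from -88 to -83 and from -77 to -72, with 5 bases between the copies, which is the spacing of a carbohydrate response element. Sites of the form CACGNG, on either strand and 5 bases apart, were found in 27 of 35116 promoter windows, a share of 0.0769%. The window of ARRDC4 held CACGTG from -210 to -205, and that of MLX held it from -50 to -45. CACGTG was present in 7.26% of all windows, and CACGAG on either strand in 6.78%. In ARRDC1, ARRDC2, ARRDC3, MLXIP and the second TXNIP window, these letters did not occur within the 300 bases searched. A match is a description of the sequence and does not show that a protein binds there.

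**Figure D1:**
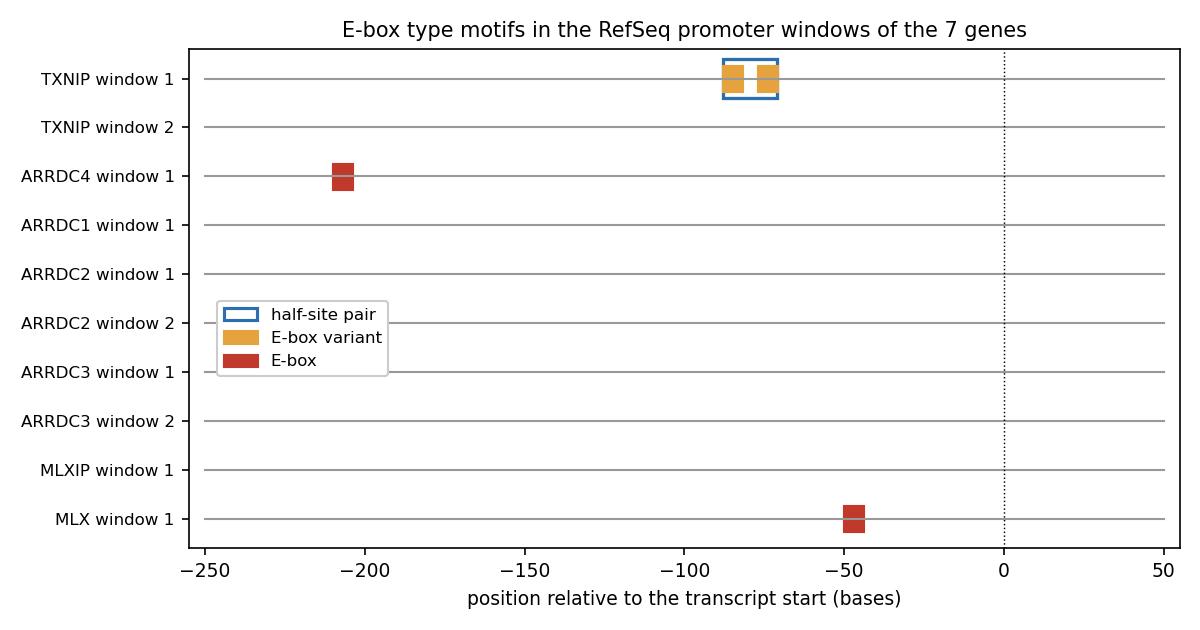
Positions of CACGTG (E-box, red), CACGAG on either strand (E-box variant, orange) and a pair of CACGNG sites 5 bases apart (blue outline) in the 10 promoter windows of the 7 genes. The x axis is the distance from the transcript start in bases, and each line is 1 window; only the first TXNIP window holds a pair, from -88 to -72, and ARRDC4 and MLX hold 1 E-box each.

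The deposited values are FPKM, mapped fragments scaled to transcript length and library size, so levels of different genes can be compared within a library. By an estimate from low values, the libraries held between 35100000 and 42100000 fragments. The 8 melanocyte lineage genes checked summed to between 4524 and 8022 FPKM, with the lowest sum in the MYC line with Dox. Most of each sum was PMEL, which ran from 3394 to 6228 FPKM. Of these 8 genes, 4 were called lower with Dox in the MYC line and 0 in the vector line. Over all genes tested the shares called lower were 8.85% and 0.44%. The 4 were TYRP1, PMEL, MLANA and TYR, genes of pigment synthesis and the melanosome, with log2 changes of -0.97, -0.86, -0.74 and -0.70. By any amount 7 of the 8 were lower in the MYC line and 1 was higher, SLC45A2, which went from 103 to 109 FPKM. PTPRC and CD3E of leukocytes, KRT5 of keratinocytes, and PECAM1 and CDH5 of endothelium were at or near 0. Summed levels in the 4 libraries reached at most 18.5 FPKM for 4 keratinocyte markers, nearly all of it KRT10, and ran from 26.1 to 31.6 FPKM for 3 fibroblast markers, nearly all of it LUM. They ran from 1.03 to 1.75 FPKM for 4 leukocyte markers, nearly all of it the lysozyme gene LYZ (log2 change -0.76 in the MYC line), and from 0.0958 to 0.334 FPKM for 3 endothelial markers. The part of the melanocyte genes in the results below was not tested. MYC was 58.3 FPKM in the vector line and 54.8 FPKM after Dox. In the MYC line it was 76.5 FPKM without Dox and 87.1 FPKM with Dox. On the log2 scale MYC differed with Dox by 0.19 in the MYC line and by -0.09 in the vector line. In these FPKM values MYC itself did not pass 1.5-fold, and the untreated MYC line was already above both vector libraries. By RT-PCR, the paper reports a higher MYC transcript level with Dox in the inducible cells. It also reports a more active E-box reporter there. The table gives MYC 1 value per library, and the share from the introduced gene was not tested. A change is given as the difference of log2(FPKM + 0.1) between 2 libraries, which understates the change of low genes, and a gene is called higher or lower when it passed 1.5-fold. The interval beside a change is an exact binomial 95% interval of the approximate fragments on the plain ratio, and it covers counting error only.

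With Dox, TXNIP fell from 26.0 to 13.2 FPKM in the MYC line, and it was the only one of the 7 genes to pass 1.5-fold. The ARRDC4 and ARRDC1 values were also below those of the other libraries without passing 1.5-fold. MLX, MLXIP, ARRDC2 and ARRDC3 were slightly above them. Of the 6 genes whose mean over the libraries reached 1 FPKM, 1 was called lower and 0 were called higher. Over all 11147 genes with such a mean, 8.85% were called lower and 5.90% higher in the same comparison.

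TXNIP measured 24.6 FPKM in the untreated vector line, 27.9 FPKM in the vector line with Dox, 26.0 FPKM in the MYC line without Dox and 13.2 FPKM in the MYC line with Dox. The other 3 libraries lay within 1.14-fold of each other, and the MYC line with Dox was 46.3% below the lowest of them. Dox treatment of the MYC line gave a log2 change of -0.97, or 1.96-fold lower, with a counting interval from -1.07 to -0.89 based on about 1504 and 3166 fragments. Of the 11147 genes, 262 (2.35%) were lower by at least as much. TXNIP lies at chr1:145438490-145442635 of GRCh37, and 9 exons make up its main transcript. Its level was above that of 72.0% of the genes tested in the untreated MYC line and above that of 57.7% after Dox.

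ARRDC4, the alpha-arrestin that shares regulation by MondoA with TXNIP and also limits glucose uptake, had 16.8 FPKM in the vector line, 17.1 FPKM in the vector line with Dox, 16.8 FPKM in the untreated MYC line and 11.7 FPKM with Dox. The first 3 values lay within 1.02-fold of each other, as did those of ARRDC2, and the fourth was 30.3% below the lowest of them. The log2 change in the MYC line was -0.52, with a counting interval from -0.61 to -0.44. This is 1.43-fold and below the 1.5-fold threshold, and 11.1% of the genes tested were lower by at least as much. ARRDC4 lies at chr15:98503933-98517063, and no other annotated gene overlaps it.

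ARRDC1, which recruits TSG101 to bud vesicles from the plasma membrane, had 9.10 FPKM in the vector line and 10.6 FPKM in the vector line with Dox. It had 8.40 FPKM in the untreated MYC line and 6.99 FPKM with Dox. Its levels outside the MYC line with Dox spread more than those of TXNIP or ARRDC4, by 1.27-fold. The log2 change was -0.26 in the MYC line, with a counting interval from -0.45 to -0.08, and 26.3% of the genes tested were lower by at least as much. ARRDC1 (chr9:140500137-140509812) overlaps an antisense gene, listed under its older symbol C9orf37, on the opposite strand, and a long noncoding RNA gene on its own strand that matched no symbol here. C9orf37 was between 8.64 and 9.79 FPKM in the 4 libraries, and it is not stated whether counting used the strand, so shared reads were not tested.

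ARRDC2, a less studied alpha-arrestin, had 5.50, 5.44 and 5.40 FPKM in the vector line, the vector line with Dox and the untreated MYC line, and 6.13 FPKM in the MYC line with Dox. Its log2 change in the MYC line was 0.18, with a counting interval from 0.02 to 0.35. ARRDC3, an adaptor for the degradation of integrin beta 4, had 0.698, 0.771, 0.797 and 0.937 FPKM in the same order. With a mean of 0.801 FPKM it was below the filter and is given for its values alone. Its log2 change of 0.21 had a counting interval from -0.10 to 0.57, so a difference was not detectable at this depth. ARRDC3 overlaps ARRDC3-AS1 on the opposite strand, which was at most 0.123 FPKM, and ARRDC2 overlaps an opposite-strand gene that matched no symbol here. The gene of integrin beta 4, ITGB4, looked up after values had been seen, was at most 0.0143 FPKM.

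MLX, the shared partner of MondoA, had 20.3 FPKM in the vector line, 21.7 FPKM in the vector line with Dox, 20.0 FPKM in the untreated MYC line and 24.0 FPKM with Dox. MLXIP, the MondoA gene, had 9.80, 10.5, 10.5 and 11.8 FPKM in the same order. Both were highest in the MYC line with Dox, by 10.7% for MLX and 12.5% for MLXIP over the next highest library. The log2 changes in the MYC line were 0.26 for MLX, with a counting interval from 0.17 to 0.35, and 0.17 for MLXIP, with an interval from 0.11 to 0.24. Changes of this size were common, since 21.1% of the genes tested were higher by at least as much as MLX and 28.4% by at least as much as MLXIP. The ratio of MLX to MLXIP stayed between 1.91 and 2.07 in the 4 libraries. MLX (chr17:40719090-40725257) shares exonic sequence with PSMC3IP on the opposite strand, which went from 31.3 to 27.6 FPKM in the MYC line.

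**Figure D2:**
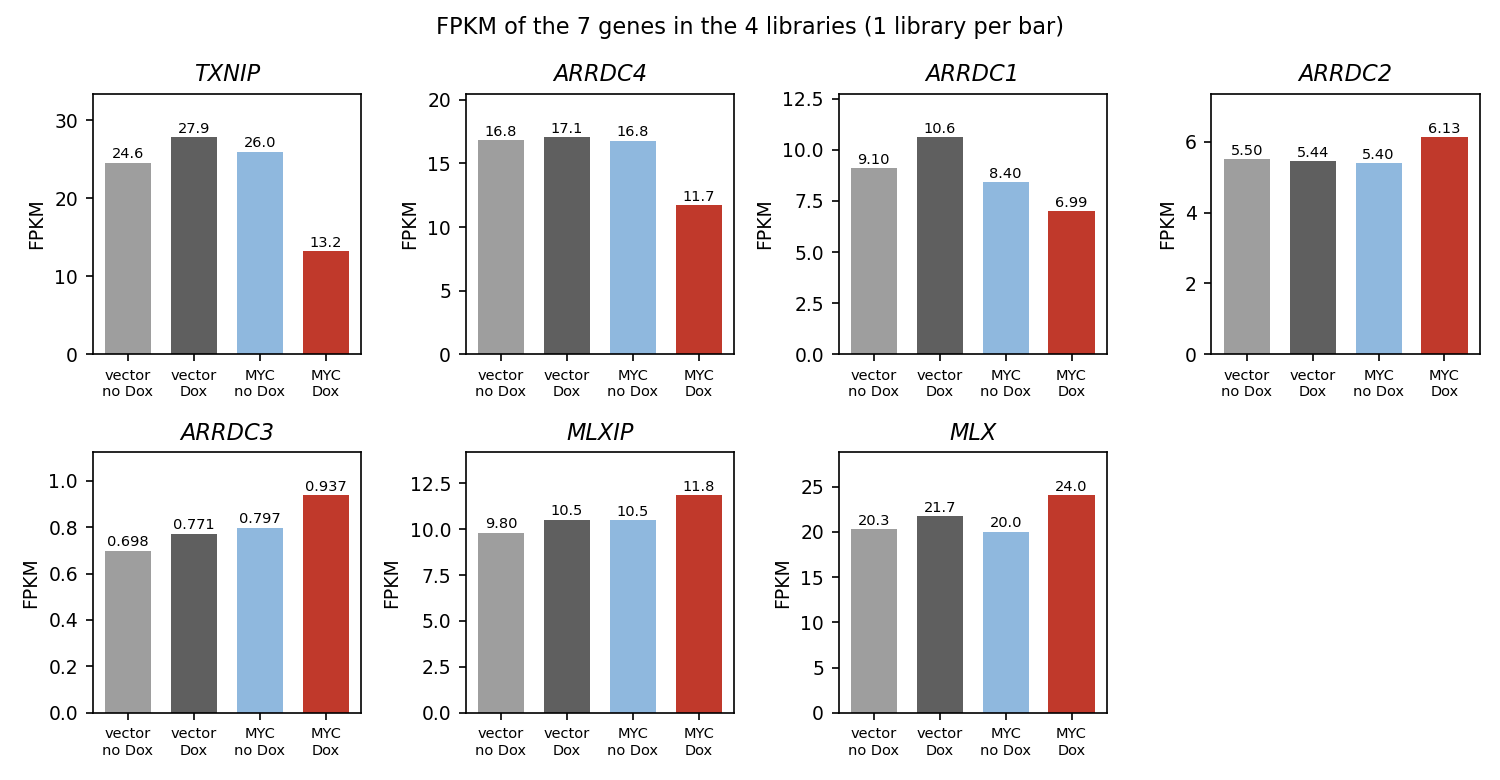
FPKM of each of the 7 genes (y axis, starting at 0, with its own scale for each gene) in the 4 libraries (x axis), 1 bar per library, with no error bars since each bar is 1 library. TXNIP drops from 26.0 to 13.2 FPKM and ARRDC4 goes from 16.8 to 11.7 FPKM with Dox in the MYC line (red), while MLX and MLXIP are highest there.

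For all 7 genes the value of the MYC line with Dox lay outside the range of the other 3, below it for TXNIP, ARRDC4 and ARRDC1 and above it for the remainder. This was also the case for most of the genes tested, with 42.9% below and 40.2% above, so lying outside the range is not particular to these genes. The median log2 change of the 6 genes past the filter was -0.04, against -0.03 for all genes tested. It was 0.17 with ARRDC3 included, so the direction of the median depends on the filter.

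In the vector line, where Dox acts without inducible MYC, none of the genes passed 1.5-fold. Among all genes tested 0.709% were called higher and 0.440% lower. TXNIP was higher with Dox by a log2 change of 0.18, with a counting interval from 0.11 to 0.26, opposite to its direction in the MYC line. ARRDC1 had a log2 change of 0.22 there, with an interval from 0.05 to 0.39, also opposite in sign to its change in the MYC line. Changes as large as that of TXNIP were seen in 7.93% of the genes tested in this direction, and as large as that of ARRDC1 in 5.21%. ARRDC4 and ARRDC2 were at 0.02 and -0.02, and MLX, MLXIP and ARRDC3 at 0.10, 0.10 and 0.13. The median of the 6 genes past the filter was 0.10, against 0.01 for all genes tested.

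The lines without Dox differ in construct as well as in culture, so their comparison does not give the spread between cultures. Between them none of the 7 genes passed 1.5-fold. All genes tested passed it in 0.592% of cases upward and 0.287% downward. TXNIP was 0.08 higher in the MYC line on the log2 scale, ARRDC4 differed by 0.00 and ARRDC1 by -0.11. MLX and ARRDC2 differed by -0.02 and -0.03, MLXIP by 0.10 and ARRDC3 by 0.17. When both lines had Dox, TXNIP was lower in the MYC line by a log2 difference of -1.07 and ARRDC1 by -0.60, so that 2 genes were called lower, against 8.62% of all genes tested, and 0 were called higher, against 6.50%. ARRDC4 was at -0.54 in this comparison, MLX at 0.15 and MLXIP at 0.17. This comparison uses the same library of the MYC line with Dox as the one within the MYC line, so the values are not independent of each other.

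**Figure D3:**
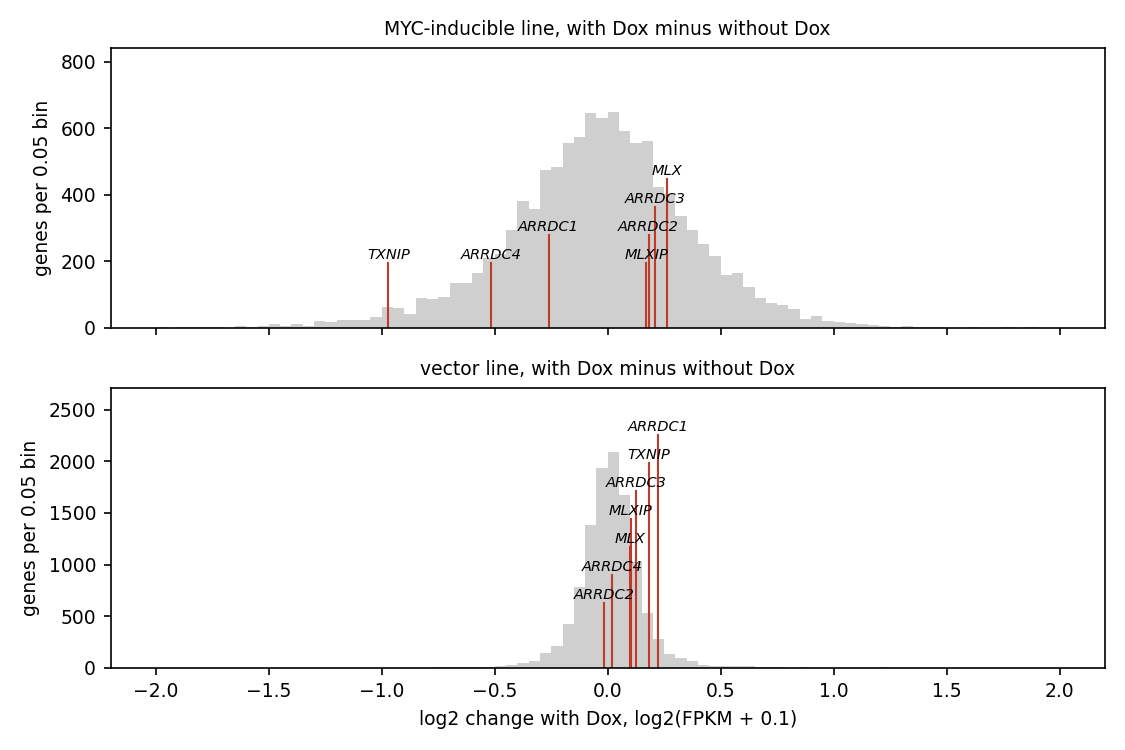
Number of genes (y axis, per bin of 0.05) by log2 change with Dox (x axis) for the genes tested, in the MYC line (top) and the vector line (bottom), with the 7 genes marked in red, ARRDC3 among them although it was not tested. Beyond the plotted range lie 48 genes in the top panel and 20 in the bottom one. TXNIP stands in the lower tail of the top panel at -0.97 and within the upper part of the narrow bottom distribution at 0.18.

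The order of the levels differed in the MYC line with Dox. TXNIP ranked first of the 7 genes in the other 3 libraries and second in that one, where MLX ranked first. Among the other 3 libraries, the ranges of MLXIP (9.80 to 10.5 FPKM) and ARRDC1 (8.40 to 10.6 FPKM) overlapped, while those of the other neighbours in the order did not. In the MYC line with Dox, MLXIP at 11.8 FPKM and ARRDC4 at 11.7 FPKM were nearly level. The 4 ARRDC genes summed to 32.1, 33.9, 31.4 and 25.8 FPKM, in the order vector line, vector line with Dox, MYC line and MYC line with Dox. TXNIP made up 43.3%, 45.1%, 45.3% and 33.9% of the sum over TXNIP and the ARRDC genes in that order.

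Thioredoxin, the protein that TXNIP inhibits, is encoded by TXN, which was chosen for comparison after its values had been seen. TXN was 559, 585, 575 and 763 FPKM in the same order of libraries, and its log2 change in the MYC line was 0.41. For every 100 FPKM of TXN there were 4.40, 4.76 and 4.52 FPKM of TXNIP in the first 3 libraries and 1.73 FPKM in the MYC line with Dox. Of the 12 genes of the thioredoxin system, 0 passed 1.5-fold in either direction. In the MYC line 8.85% of all genes tested were called lower and 5.90% higher. The median log2 change of the 12 genes was 0.18 for the MYC line and -0.02 for the vector line. PRDX1, a peroxiredoxin that removes peroxides with the help of thioredoxin and the most abundant gene of this list, went from 916 to 693 FPKM in the MYC line.

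Genes of glucose entry and others that respond to carbohydrate formed a list of 14, of which 10 passed the filter of 1 FPKM. In the MYC line 1 of the 10 was called lower and 1 higher, against 8.85% and 5.90% of all genes tested, and the median log2 change was -0.17, against -0.03 for all genes tested. SLC2A3, which encodes the glucose transporter GLUT3, fell from 10.7 to 5.62 FPKM (log2 change -0.92), and was at -0.17 in the vector line. SLC2A1, the gene of GLUT1, did not pass 1.5-fold. It went from 31.1 to 25.5 FPKM (log2 change -0.28), and was at 0.12 in the vector line. ACACA, the acetyl-CoA carboxylase of fatty acid synthesis, rose from 2.36 to 3.77 FPKM (log2 change 0.65), and was at -0.14 in the vector line. In the vector line none of the 10 genes passed 1.5-fold. The list held genes with values on both sides, as 7 were lower and 3 higher by any amount.

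Of the MLX and MAX network, 6 of 8 listed genes passed the filter, and 0 passed 1.5-fold in either line. The shares of all genes tested in the MYC line were 8.85% lower and 5.90% higher. The median log2 change of the 6 genes was 0.12 for the MYC line. MXD3, a MAX partner that opposes MYC at E-boxes and the most abundant of them, was 39.0 FPKM without Dox and 47.9 FPKM with Dox. MLXIPL, which encodes ChREBP, the relative of MondoA found in liver and fat, was listed at 0 in all 4 libraries. Among other arrestin-fold genes, 6 of 9 were tested and 1 was called higher, against 5.90% of all genes tested. ARRB1, which encodes beta-arrestin 1, an adaptor of G protein-coupled receptors, rose from 3.01 to 4.61 FPKM (log2 change 0.60), against -0.12 in the vector line. The arrestins of the retina, SAG and ARR3, and the remaining ARRDC gene, ARRDC5, were listed at 0 in all 4 libraries.

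The ubiquitin ligases of the NEDD4 family bind alpha-arrestins through their WW domains. Of 9 listed, 7 were tested and 0 passed 1.5-fold in either line. Over all genes tested 8.85% were called lower and 5.90% higher in the MYC line. The median log2 change of the 7 genes was -0.11 for the MYC line, against -0.03 for all genes tested. For the vector line it was -0.03, against 0.01. NEDD4L, the most abundant, went from 13.6 to 11.4 FPKM in the MYC line. Of 8 reported cargos and partners of TXNIP and the ARRDC proteins, 4 were tested. In the MYC line 0 of these 4 passed 1.5-fold, against 8.85% of all genes tested called lower and 5.90% higher. By any amount all 4 were lower there, with a median log2 change of -0.17. Among them TSG101, the partner of ARRDC1, was 91.9 FPKM without Dox and 74.4 FPKM with Dox.

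The genes whose 4 values followed the pattern of TXNIP most closely were GDF15, SPSB2 and FAM214B. Likeness was the distance between log2 values centred on the mean of the 4 libraries, over 7473 other genes whose mean reached 5 FPKM. The distances were 0.0472, 0.0494 and 0.0569 in that order. GDF15, a secreted stress cytokine, was 452, 510, 458 and 242 FPKM in the vector line, the vector line with Dox, the MYC line and the MYC line with Dox. SPSB2 went from 7.32 to 3.69 FPKM and FAM214B from 16.1 to 8.34 FPKM with Dox in the MYC line. With 4 libraries, a small distance describes these libraries only.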

How the data were processed

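For the 4 libraries the deposited table holds FPKM by gene symbol, made by the authors, and no counts. The submitters' processing notes name TopHat2 2.0.14 and Cufflinks, with hg19 and GRCh37. The Cufflinks version, the annotation and the strand setting are not given in the sources used here. Of 27032 rows, 1 named no gene and was dropped, and 609 symbols with several rows were summed. Genes averaging 1 FPKM or more were tested, with a pseudocount of 0.1 and a threshold of 1.5-fold. Because each group is 1 library, no test between groups was run.

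Relative depth came from the commonest ratio between genes under 0.05 FPKM. For 1641 of 2806 genes under 0.2 FPKM (58.5%), the values were whole multiples of 1 step, allowing multiples up to 12 and a tolerance of 1.2%. Of these, 160 genes with a single transcript of at least 1500 bases in GENCODE 44 on GRCh37 gave the approximate fragments, with quartiles of 34300000 and 40800000 for the vector line. The calculations were tested on simulated counts drawn with the transcript lengths that they assume. Such data do not show how well real values meet that assumption.

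The 7 genes and the lists were chosen with earlier results of these data known. The text names all 7, the genes of each list past 1.5-fold in the MYC line or else the most abundant one, and the 3 genes nearest to each member past 1.5-fold. Other genes are also named outside this rule, among them genes at or near 0, TXN, ITGB4, SLC2A1, SLC45A2, GFPT1 and RAN. The cell type was checked with fixed marker genes. Alternatives were pseudocounts of 1 and 0.01, 3 scalings, the vector line with Dox as reference, leaving out symbols with several rows, no filter, a filter at 5 FPKM, a 2-fold threshold and the mean over members. Python 3.11.15, numpy 2.4.6, pandas 2.3.3, scipy 1.17.1 and matplotlib 3.10.9 were used.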

Additional observations from a re-analysis of the deposited data

Results flagged for a closer look

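For 4 of the 7 genes the change with Dox had opposite signs in the MYC line and the vector line. The change in the MYC line minus that in the vector line was -1.15 on the log2 scale for TXNIP, -0.54 for ARRDC4, -0.48 for ARRDC1 and 0.20 for ARRDC2. Each line gave 1 difference between single libraries, so whether the lines differed was not tested. In the vector line, ARRDC4 and ARRDC2 changed by 0.02 and -0.02. Their counting intervals, from -0.06 to 0.10 and from -0.20 to 0.16, included 0, so their opposite signs carry little weight.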

How the results depend on the processing

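No paired analysis was possible because every group holds a single library. Of 91 recalculated changes of single genes, 88 moved by less than their counting error, and no gene changed sign. The other 3 came with the vector line with Dox as reference, at -1.07 for TXNIP, -0.60 for ARRDC1 and 0.15 for MLX. TXNIP stayed between -1.07 and -0.92 in the MYC line and ARRDC4 between -0.56 and -0.49. The median of the 6 genes moved to -0.20 with that reference, 0.17 without the filter and -0.19 as a mean, and the filter alone turned its direction. The count of 1 gene called lower became 2 with that reference and 0 at 2-fold. Over all genes in the MYC line, 1138 were called higher and 1748 lower without the filter, 436 and 549 at 5 FPKM, while a 2-fold threshold left 117 and 228. For the vector line, 529 higher and 387 lower were found without the filter, 25 and 8 at 5 FPKM, 43 and 22 when the pseudocount was 1, and 28 and 15 past 2-fold. The filter settings alter how many genes enter. The approximate depth limits ARRDC3 most, at about 115 to 156 fragments in each library.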

Other observations

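Among 8381 genes tested that had a promoter window, 16 held CACGNG-type sites 5 bases apart, as TXNIP does. This look at their changes was chosen after the data had been seen. With Dox in the MYC line, 3 of the 16 were called lower (18.8%) and 0 higher. Over the 8381 genes 685 were called lower (8.17%) and 462 higher. TXNIP prompted the look and is 1 of the 3. Without it, 2 of 15 were called lower (13.3%), and the median log2 change was -0.09, against -0.03 for the 8381 genes. Besides TXNIP, the genes called lower were RCN3, a calcium-binding protein of the secretory pathway, which went from 139 to 78.1 FPKM, and P4HA1, a subunit of collagen prolyl 4-hydroxylase, which went from 33.8 to 22.2 FPKM. GFPT1, which encodes the entry enzyme of the hexosamine pathway, also held such sites and was 14.5 FPKM without Dox and 10.6 FPKM with Dox. RAN, the GTPase of nuclear transport, held them too and was 809 FPKM without Dox and 1117 FPKM with Dox. A count of 16 genes is small, and no test was made.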
